A study of Homo sapiens with 29 samples.

Results

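Interferon response genes are the genes a cell switches on when it senses interferon, and this account follows 43 of them by symbol in lymphoma cells given an inhibitor of the tyrosine kinase SYK. The array measured 41 of the 43, among 12165 genes in all. STAT2 and TRIM21 had no probe set of their own and are not analysed here. The cells were DHL4 and DHL6, established human cell lines of diffuse large B-cell lymphoma (DLBCL), a cancer of mature B cells; each is a single line and stands only for itself. They were grown in RPMI 1640 medium with R406, which blocks SYK and with it signals from the B-cell receptor, at 1 µM for 2, 6, 24 or 48 h, or with the solvent DMSO alone. The 29 Affymetrix arrays form 10 groups of 3, except DHL4 in DMSO with 2 arrays. The labels give the DMSO arrays no time, so the same DMSO arrays of a line serve all 4 times, and time in culture cannot be told apart from time in R406. The series description lists the times for R406 and vehicle alike and speaks of triplicates, so the DMSO arrays may stem from 1 time or from several; which was the case was not tested. The labels do not say whether the arrays of a group are separate cultures. A p-value here sets a difference against the scatter of arrays within groups, and that scatter may be technical.

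Type I interferons signal through the kinases JAK1 and TYK2 to a complex that includes STAT2 and IRF9 and binds the interferon-stimulated response element in promoters; interferon gamma acts through another element, the gamma-activated site. The induced proteins block viruses at entry, translation and RNA stability, sense foreign nucleic acid, and mark proteins with ISG15. In B cells several of these genes are also transcribed without interferon, and they change with differentiation, receptor signalling and the activity of IRF and STAT factors.

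The sequences below are promoters of the 4 members called higher than DMSO in which a search found the core of the response element. The promoter of OAS1, the member with the largest rise of all, follows, and the search found no core in it. The sequences come from RefSeq on GRCh38.p14 and run 5′ to 3′ on the gene's own strand, from 250 bases before the gene start to 50 after it. Capitals mark the core, searched as GAAANNGAA on both strands. Windows of OAS1, IFI16 and OAS3 hold gaaacgaa, which has 1 base between GAAA and GAA where the search asked for 2. That spacing was not counted, so a window without capitals may still hold a variant of the element. ISG20 lies on the plus strand at chr15:88638766-88639065, IFI16 on the plus strand at chr1:159009657-159009956 (1 of its 2 windows, with the core read on the minus strand), OAS3 on the plus strand at chr12:112938224-112938523, BST2 on the minus strand at chr19:17405581-17405880, and OAS1 on the plus strand at chr12:112906712-112907011.
ISG20: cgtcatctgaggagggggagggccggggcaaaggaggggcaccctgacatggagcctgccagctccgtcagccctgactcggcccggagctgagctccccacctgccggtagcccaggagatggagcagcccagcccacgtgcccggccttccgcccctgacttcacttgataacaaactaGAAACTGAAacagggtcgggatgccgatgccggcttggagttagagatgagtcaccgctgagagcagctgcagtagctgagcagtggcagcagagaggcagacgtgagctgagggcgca
IFI16: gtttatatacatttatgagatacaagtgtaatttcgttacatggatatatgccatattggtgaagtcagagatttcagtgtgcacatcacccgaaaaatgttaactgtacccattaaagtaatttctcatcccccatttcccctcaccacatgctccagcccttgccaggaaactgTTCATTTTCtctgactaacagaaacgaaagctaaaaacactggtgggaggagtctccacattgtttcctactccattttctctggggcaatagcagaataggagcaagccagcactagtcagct
OAS3: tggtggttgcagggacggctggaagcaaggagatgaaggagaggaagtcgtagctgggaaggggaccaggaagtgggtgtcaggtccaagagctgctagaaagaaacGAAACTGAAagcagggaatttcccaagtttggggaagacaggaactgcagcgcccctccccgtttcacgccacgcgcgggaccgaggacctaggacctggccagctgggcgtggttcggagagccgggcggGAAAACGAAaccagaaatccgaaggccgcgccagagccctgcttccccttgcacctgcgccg
BST2: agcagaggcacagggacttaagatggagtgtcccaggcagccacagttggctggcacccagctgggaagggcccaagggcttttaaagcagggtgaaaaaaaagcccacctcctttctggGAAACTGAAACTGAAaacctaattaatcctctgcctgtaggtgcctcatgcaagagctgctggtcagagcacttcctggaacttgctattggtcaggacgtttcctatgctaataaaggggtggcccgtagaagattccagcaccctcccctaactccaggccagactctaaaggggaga
OAS1: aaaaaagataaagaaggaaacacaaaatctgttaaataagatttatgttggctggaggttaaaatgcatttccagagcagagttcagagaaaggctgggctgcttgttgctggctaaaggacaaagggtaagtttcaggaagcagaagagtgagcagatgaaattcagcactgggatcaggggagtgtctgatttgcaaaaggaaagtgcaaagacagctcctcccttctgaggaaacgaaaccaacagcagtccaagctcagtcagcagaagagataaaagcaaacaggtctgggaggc
The core began 69 bases before the start in ISG20, 74 before it in IFI16, and 143 and 12 before it in OAS3. In BST2 a pair of overlapping cores began 130 and 124 bases before the start. Of the 41 measured members, 30 had a promoter available and 11 did not. Those 11 included the risers TRIM22, IRF7, MX2, IFIT2 and IRF2, which were not searched. The core was present in 19 of the 30 (63.3%), against 918 of the 9711 array genes with a promoter (9.45%) and 2847 of all 35116 windows (8.11%). Among members that rose in at least 1 comparison with DMSO, 4 of 12 held it (33.3%), and among members called in none, 14 of 16 did (87.5%). Among members under the median level of all genes in every group, 10 of 11 held it (90.9%). These dim members, for which the array shows little change, were all among those called in none. The shares of risers and of uncalled members therefore cannot be told apart from a difference in level. The gamma-activated site, searched as TTCNNNGAA, was present in 9 of the 30 (30.0%), in 5 of the 12 that rose (41.7%) and in 883 of the 9711 array genes (9.09%). These are matches of letters within 1 window and say nothing of binding.

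Levels are log2 units as deposited, on which 1 unit is a factor of 2, and each gene is read from its brightest probe set. The 29 arrays spanned log2 levels of 1.99 to 13.49, and the median gene level over all arrays was 3.38. Levels near 3 are dim on this scale, and a level under the lower quartile of 2.84 is treated as near the floor, where the array shows little change. Arrays of one group correlated at 0.978 to 0.996 over all genes, and no pair was identical. The number of arrays, not a depth, limits the precision. In 4 arrays (DHL6 48 h replicates 1 and 3, DHL4 2 h replicate 3 and DHL6 6 h replicate 3) the upper quartile of levels was 4.87 to 5.02, against 5.14 to 5.42 in the other arrays. Without these 4 arrays 8 calls of members were lost and 35 gained over the 17 comparisons. The value without them stands beside each call that was lost, and for some of those gained. Where the compared groups hold none of the 4 arrays, the differences stayed the same. Only the scatter shared by all groups and the adjustment changed there. DHL6 at 48 h is left with 1 array. The cells carried B-cell markers: MS4A1 (CD20) had group means of 9.04 to 11.67, while PAX5 and CR2 were under the median gene level in all 10 groups. At 24 h MS4A1 was lower than in DMSO, at 9.04 against 11.37 in DHL4 and 10.61 against 11.67 in DHL6; of the 7 measured B-cell markers 4 rose and 1 fell in DHL4, and 3 rose and 2 fell in DHL6. T-cell markers were under it in 6 of 6 cases (2.39 to 3.29), and so were 5 of 6 measured monocyte and macrophage markers (2.52 to 3.44 over the 6). Of 4 measured markers of plasmacytoid dendritic cells, strong makers of interferon, LILRA4 and GZMB lay between 2.43 and 3.47. TCF4 and SPIB, which B cells express too, rose at 24 h in DHL4 (6.51 to 8.84 and 7.79 to 8.61), and SPIB fell in DHL6 (7.85 to 7.12). At 2 h SPIB was lower than in DMSO in both lines, at 6.11 in DHL4 and 6.08 in DHL6. Of 5 plasma cell markers PRDM1 and SDC1 were under the median gene level throughout, XBP1 rose at 24 h (4.16 to 5.81 in DHL4, 4.44 to 5.34 in DHL6) and TNFRSF17 fell (6.87 to 5.21 and 8.21 to 5.11). IRF4 was higher in DHL6 than in DHL4 in DMSO (6.30 against 3.67) and reached 7.75 in DHL6 at 6 h. The part of these changes in the response of the members was not tested. In a bulk sample fewer cells of a type and less RNA per cell cannot be told apart.

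Much of the classical interferon signature was dim in these cells. In all 10 groups, 14 members stayed under the median gene level: IFIT1, IFIT3, IFIT5, OASL, MX1, GBP1, GBP2, IFI6, IFI27, IFI35, IFI44, IFI44L, USP18 and IFIH1. Their group means ran from 2.46 to 3.34, and 0 of the 14 passed limma's test (adjusted p under 0.05) in any of the 8 comparisons with DMSO, with 2 of the 14 at an unadjusted p under 0.05 in 1 comparison each. Without the 4 arrays of low upper quartile, IFIT3 passed limma's test at 24 h in DHL4 (0.29, adjusted p = 0.0312), at an unchanged difference. The IFI6 difference at 48 h in DHL6 was then 0.49, on the 1 array left in that group. IFI44, USP18 and IFIH1 were also under the floor of 2.84 in every group. The response described here is that of the other 27 members, of which 20 passed the test at least once and 7 did not.

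**Figure D1:**
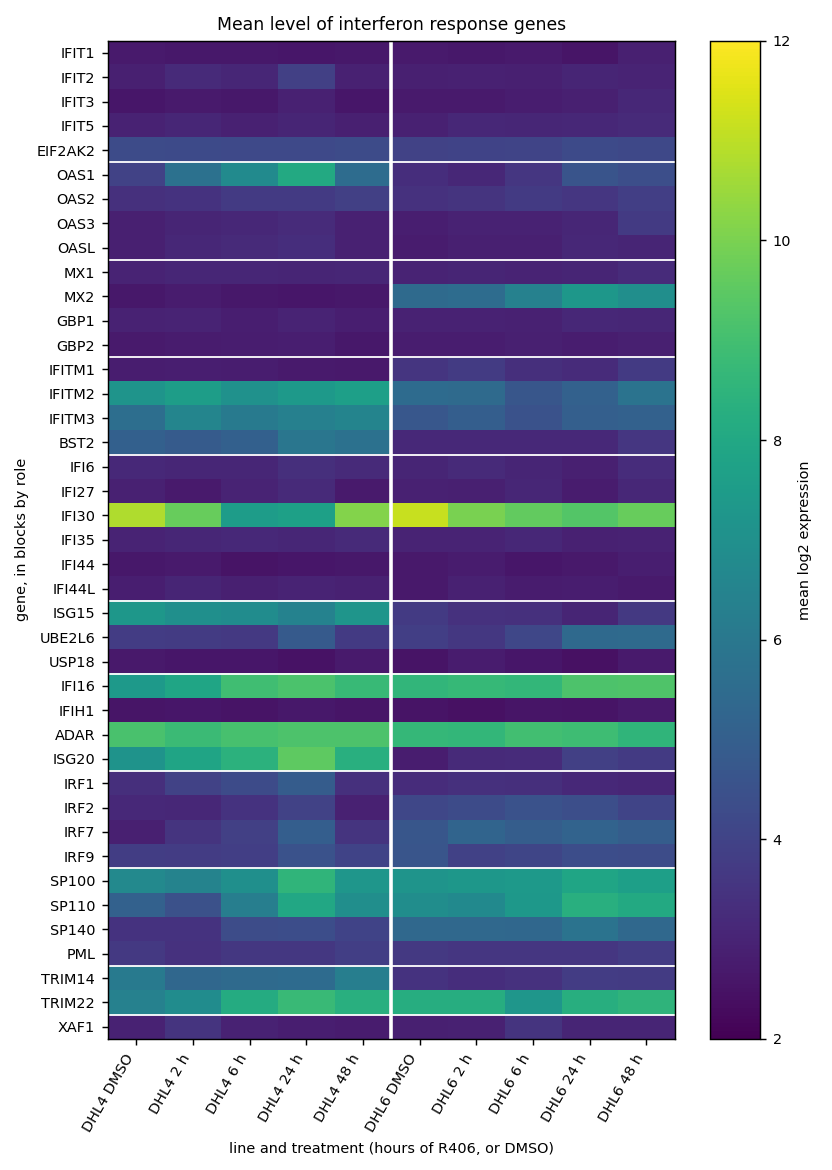
Mean log2 level (colour, 2 to 12) of the 41 measured members (rows, in blocks by role) in the 10 groups (columns; DHL4 left, DHL6 right of the white line). OAS1 in DHL4 brightens up to 24 h, MX2 is bright in DHL6 and dim in DHL4, IFI30 darkens in both lines, and 14 rows are dim throughout; levels of different probe sets cannot be set against each other.

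Against DMSO, more members rose than fell at 24 h in both lines, and OAS1, SP110, ISG20, IFI16, SP100 and UBE2L6 were higher in both at that time. A member is called where limma's test, adjusted by Benjamini and Hochberg over all 12165 genes, gave an adjusted p under 0.05. In DHL4, 3 members rose and 2 fell at 2 h (2.67% of all genes rose and 6.81% fell), 8 rose and 1 fell at 6 h (6.42% and 6.36%), 14 rose and 2 fell at 24 h (13.0% and 16.5%), and 7 rose and 1 fell at 48 h (3.53% and 3.80%). In DHL6, 0 rose and 2 fell at 2 h (2.14% and 3.16% of all genes), 2 rose and 3 fell at 6 h (3.14% and 5.12%), 7 rose and 2 fell at 24 h (6.20% and 8.17%), and 8 rose and 1 fell at 48 h (8.39% and 14.9%). At an unadjusted p under 0.05, limma gave 1 member higher in DHL6 at 2 h. As a share of the 41 members, the risers made up 34.1% at 24 h in DHL4, above the 13.0% of all genes, and 17.1% at 24 h and 19.5% at 48 h in DHL6. The risers at 6 h in DHL6 (4.88% of members) were close to the share of all genes. The median change of the members was 0.22 at 24 h in DHL4 (0.03 over all genes), 0.16 at 24 h in DHL6 (0.02) and 0.21 at 48 h in DHL6 (0.04).

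Of the 41 members, 14 were called only as higher, 3 only as lower (IFITM2, IFI30 and ISG15), 3 in both directions at different times or in different lines (IRF9, SP110 and TRIM22), and 21 never. On the same rule 18.3% of all genes were called only as higher (34.1% of members), 21.7% only as lower (7.32%), 3.76% in both directions (7.32%) and 56.2% never (51.2%). Calls were made for 16 members in DHL4 (39.0%, against 34.1% of all genes), 14 in DHL6 (34.1% against 29.1%) and 10 in both (24.4% against 19.5%), so the members were called about as often as other genes, with more of the calls upward. Some counts, those at 2 h among them, changed when single arrays were left out. At 6 h in DHL6 the count stayed at 4 to 5 without any 1 array. At 2 h in DHL4 the 5 calls became 2 without DMSO replicate 1 and 2 without DMSO replicate 2. At 48 h in DHL4 the 8 calls became 5 without DMSO replicate 2, and 13 without the 4 arrays of low upper quartile, where OAS2 (0.53), IFITM2 (0.49), IFITM3 (0.90), IRF7 (0.61) and SP140 (0.57) passed as well. The differences of these members were unchanged, since none of the 4 arrays is in the groups compared. At 2 h in DHL6 the 2 calls became 1 without DMSO replicate 1 or 3, or without any of the R406 replicates.

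**Figure D2:**
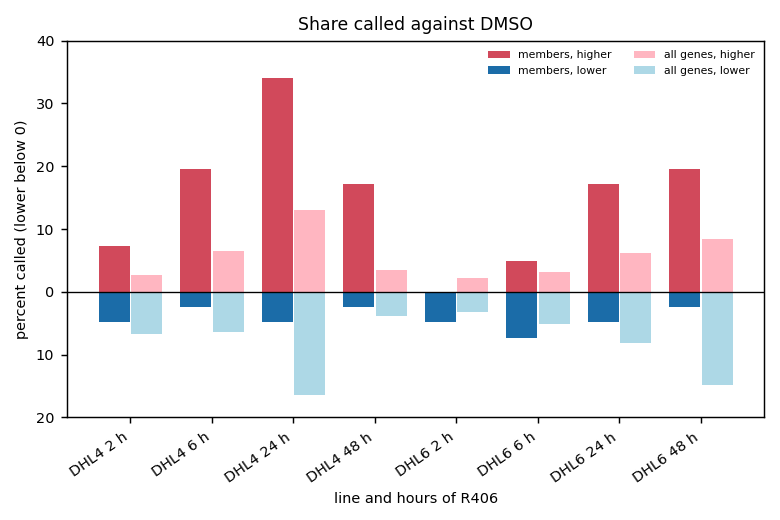
Percent of the 41 measured members (dark bars) and of all 12165 genes (pale bars) called higher (above 0) or lower (below 0) than DMSO, by line and hours of R406. Members called higher stand above the pale bar most clearly in DHL4 at 24 h (34.1% against 13.0%), while members called lower stay under it at 24 h in both lines.

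**Figure D3:**
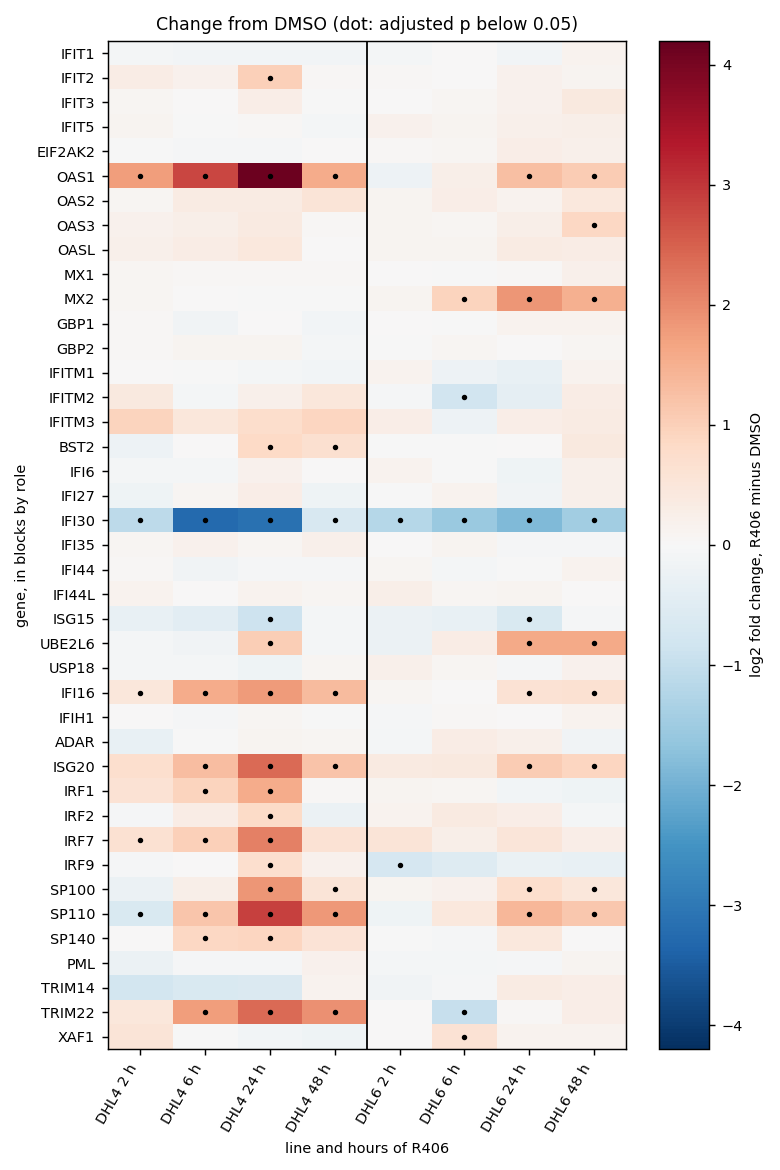
Log2 fold change from DMSO (colour; red higher, blue lower) of the 41 measured members (rows) at each time of R406 in DHL4 (left 4 columns) and DHL6 (right 4 columns); a dot marks an adjusted p under 0.05. OAS1 reaches 4.12 in DHL4 at 24 h, and IFI30 is blue and dotted in all 8 columns.

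The oligoadenylate synthetases make the second messenger that activates RNase L, which cuts RNA; OASL is their catalytically inactive relative. OAS1 rose at all 4 times in DHL4 and at 24 and 48 h in DHL6, and its rise in DHL4 at 24 h was the largest of any member. OAS1 levels in DHL4 were 3.99 and 3.95 in DMSO, 5.26, 6.34 and 5.58 at 2 h, 6.70, 6.74 and 6.86 at 6 h, 8.08, 8.13 and 8.07 at 24 h and 5.56, 5.28 and 5.77 at 48 h. OAS1 levels in DHL6 were 3.47, 3.37 and 3.13 in DMSO, 2.67, 3.25 and 3.47 at 2 h, 3.69, 3.98 and 3.03 at 6 h, 4.47, 4.27 and 5.05 at 24 h and 3.70, 4.72 and 4.75 at 48 h. Every R406 array of DHL4 was above both DMSO arrays, and the 24 h arrays were the highest and lay close together. In DHL6 the R406 arrays overlapped DMSO at 2 and 6 h and stood above it at 24 and 48 h. OAS1 rose in DHL4 by 1.76 ± 0.31 at 2 h, 2.80 ± 0.31 at 6 h, 4.12 ± 0.31 at 24 h (17.4-fold, limma adjusted p = 8.51e-11) and 1.56 ± 0.31 at 48 h. In DHL6 it rose by 1.27 ± 0.28 at 24 h (limma adjusted p = 0.00205) and 1.06 ± 0.28 at 48 h. A second, dimmer probe set of OAS1 was higher by 2.01 at 6 h and 2.36 at 24 h in DHL4 and by 0.65 at 24 h in DHL6, and was not called at 2 or 48 h in DHL4. OAS2 and OASL passed in no comparison; the OAS2 differences in DHL4 were between 0.07 and 0.53. OAS3 was called at 48 h in DHL6 (0.87 ± 0.30, limma adjusted p = 0.0397), where its 3 arrays read 4.98, 2.99 and 3.18 and its DMSO arrays 2.78, 2.95 and 2.80. The OAS3 difference was 0.24 (adjusted p = 0.436) without replicate 1 of that group, and it also missed the threshold without any 1 of the 3 DMSO arrays (adjusted p from 0.0693 to 0.105). Without the 4 arrays of low upper quartile it was 0.14 (adjusted p = 0.808).

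The IFIT proteins bind foreign or uncapped RNA and block its translation, and EIF2AK2 (PKR) halts translation when it binds double-stranded RNA. Of these 5 members 1 was called: IFIT2, at 24 h in DHL4. IFIT2 levels in DHL4 were 2.88 and 2.90 in DMSO, 2.94, 3.56 and 3.09 at 2 h, 3.19, 2.99 and 3.03 at 6 h, 4.38, 3.36 and 3.94 at 24 h and 2.89, 3.15 and 2.75 at 48 h. IFIT2 levels in DHL6 were 2.77, 2.79 and 3.06 in DMSO, 2.90, 2.91 and 2.95 at 2 h, 2.77, 2.86 and 2.99 at 6 h, 2.92, 2.91 and 3.29 at 24 h and 2.96, 3.23 and 2.80 at 48 h. The 24 h arrays of DHL4 were above both DMSO arrays but spread more widely than any other IFIT2 group, and the other groups overlapped DMSO or lay close to it. IFIT2 rose by 1.01 ± 0.21 there (2.01-fold, limma adjusted p = 0.000374) and differed by 0.17 ± 0.19 in DHL6 at 24 h (adjusted p = 0.677). IFIT1, IFIT3 and IFIT5 were dim throughout, and EIF2AK2 had group means of 3.98 to 4.29 with no call.

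MX2 is an interferon-induced GTPase of the dynamin family that restricts HIV at the nuclear pore; MX1 restricts influenza, and GBP1 and GBP2 coat intracellular pathogens. MX2 rose in DHL6 at 6, 24 and 48 h. MX2 levels in DHL4 were 2.68 and 2.62 in DMSO, 3.21, 2.35 and 2.68 at 2 h, 2.62, 2.44 and 2.92 at 6 h, 2.59, 2.79 and 2.48 at 24 h and 2.56, 2.66 and 2.67 at 48 h. MX2 levels in DHL6 were 5.56, 5.46 and 5.34 in DMSO, 5.50, 5.46 and 5.70 at 2 h, 6.39, 6.58 and 6.17 at 6 h, 7.34, 7.25 and 7.32 at 24 h and 7.03, 6.84 and 6.94 at 48 h. In DHL4 all groups overlapped at the bottom of the scale, with means under the floor, so a small change there could not be seen. In DHL6 the 6, 24 and 48 h arrays lay above all DMSO arrays. MX2 rose in DHL6 by 0.93 ± 0.15 at 6 h, 1.85 ± 0.15 at 24 h (3.61-fold, limma adjusted p = 3.24e-09) and 1.48 ± 0.15 at 48 h. MX1, GBP1 and GBP2 were dim and not called in either line.

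The membrane-bound antiviral proteins are the IFITM proteins, which hinder fusion of virus with endosomes, and BST2 (tetherin), which holds budding virus to the cell surface. BST2 rose in DHL4 at 24 h by 0.84 ± 0.18 (limma adjusted p = 0.000687), from 5.11 and 5.03 in DMSO to 5.95, 5.87 and 5.92. At 48 h BST2 was higher by 0.66 ± 0.18, a call that was lost without either DMSO array or without replicate 1 or 2 of that group (adjusted p from 0.0762 to 0.208). In DHL6 BST2 was near 3.2 in DMSO and was not called in the main fit. Without the 4 arrays of low upper quartile its difference there at 48 h was 0.71, on the 1 array left in that group. IFITM2 fell in DHL6 at 6 h (-0.82 ± 0.17, limma adjusted p = 0.00237), from 5.62, 5.29 and 5.55 to 4.80, 5.07 and 4.13, with no overlap. IFITM3 was higher by 0.46 to 0.93 in DHL4 without passing the test in the main fit. Without the 4 arrays of low upper quartile it passed limma's test there at 2 h (0.74, adjusted p = 0.00893), 24 h (0.75, adjusted p = 0.000897) and 48 h (0.90, adjusted p = 0.000689). The differences at 24 and 48 h were the same as on all arrays. The IFITM3 difference in DHL6 at 48 h was then 0.94, on the 1 array left in that group. The IFITM1 differences ran from -0.31 to 0.16. IFITM1, IFITM2 and IFITM3 are related in sequence, so their probe sets may take up each other's RNA, which was not tested. In DHL4 in DMSO the IFITM1 mean was 2.8, where IFITM2 and IFITM3 read 7.16 and 5.61.

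IFI30 (GILT), a lysosomal thiol reductase that unfolds antigens for presentation on MHC class II, fell in both lines at every time. IFI30 levels in DHL4 were 10.73 and 10.87 in DMSO, 9.80, 9.64 and 9.63 at 2 h, 7.56, 7.54 and 7.53 at 6 h, 7.54, 7.72 and 7.76 at 24 h and 10.14, 10.13 and 10.11 at 48 h. IFI30 levels in DHL6 were 11.15, 11.28 and 11.07 in DMSO, 9.98, 9.91 and 10.06 at 2 h, 9.52, 9.59 and 9.70 at 6 h, 9.39, 9.30 and 9.29 at 24 h and 9.49, 10.11 and 9.48 at 48 h. No R406 array of either line reached the DMSO arrays of its line, and in DHL4 the 6 and 24 h arrays were lowest, with a return towards DMSO at 48 h. In DHL4 it fell by 1.11 ± 0.13 (log2, SE) at 2 h, by 3.26 ± 0.13 at 6 h (9.56-fold, limma adjusted p = 8.78e-15), by 3.12 ± 0.13 at 24 h and by 0.67 ± 0.13 at 48 h. The 48 h call in DHL4 was lost without DMSO replicate 2 (adjusted p = 0.055). In DHL6 it fell by 1.19 ± 0.12 at 2 h, by 1.57 ± 0.12 at 6 h, by 1.84 ± 0.12 at 24 h (limma adjusted p = 6.01e-11) and by 1.48 ± 0.12 at 48 h. The other 5 IFI genes of unrelated function, IFI6, IFI27, IFI35, IFI44 and IFI44L, were dim and not called.

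**Figure D4:**
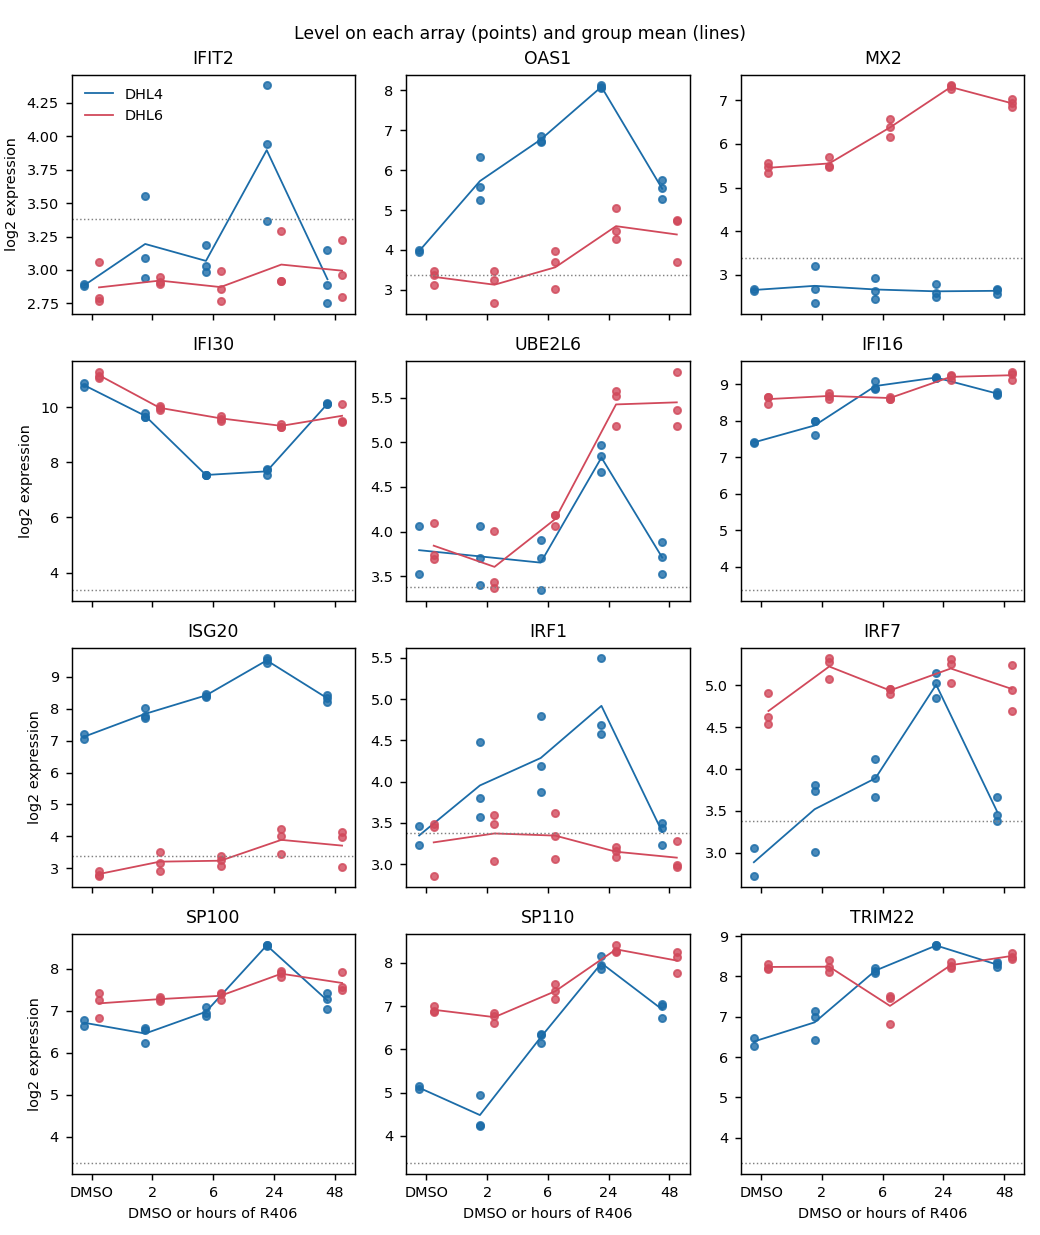
Log2 level of the 12 members that changed by at least 1 log2 unit against DMSO in a called comparison, on each array (points) with group means (lines), in DMSO and after 2, 6, 24 and 48 h of R406, for DHL4 (blue) and DHL6 (red); the dotted line is the median gene level of 3.38 and each panel has its own scale. OAS1, SP110, ISG20, IRF7 and SP100 peak at 24 h in DHL4, MX2 moves in DHL6, and IFI30 falls in both lines.

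ISG15 is a ubiquitin-like protein that is joined to target proteins by a chain that includes the conjugating enzyme UBE2L6, and USP18 removes it. UBE2L6 rose and ISG15 fell in both lines at 24 h. UBE2L6 levels in DHL4 were 3.53 and 4.06 in DMSO, 3.41, 3.70 and 4.06 at 2 h, 3.70, 3.91 and 3.35 at 6 h, 4.67, 4.85 and 4.97 at 24 h and 3.72, 3.89 and 3.52 at 48 h. UBE2L6 levels in DHL6 were 3.74, 4.10 and 3.69 in DMSO, 4.01, 3.43 and 3.37 at 2 h, 4.06, 4.18 and 4.18 at 6 h, 5.18, 5.58 and 5.52 at 24 h and 5.19, 5.37 and 5.79 at 48 h. UBE2L6 arrays overlapped DMSO at 2, 6 and 48 h in DHL4 and stood above it at 24 h, while in DHL6 they stood above it at 24 and at 48 h. UBE2L6 rose by 1.04 ± 0.22 at 24 h in DHL4 (limma adjusted p = 0.000575), and by 1.58 ± 0.20 at 24 h (adjusted p = 2.05e-06) and 1.60 ± 0.20 at 48 h in DHL6. ISG15 read 7.34 and 7.25 in DMSO and 6.37, 6.51 and 6.42 at 24 h in DHL4, a fall by 0.86 ± 0.22 (limma adjusted p = 0.00342). In DHL6 it read 3.28, 4.16 and 3.65 in DMSO and 2.92, 3.16 and 3.04 at 24 h, a fall by 0.65 ± 0.20 (limma adjusted p = 0.0248). That DHL6 call was lost without DMSO replicate 2 or 3, or without replicate 1 or 3 of the 24 h group (adjusted p from 0.0549 to 0.222). USP18 was at the floor.

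IFI16 senses DNA in the nucleus and cytoplasm, ISG20 is an exonuclease that degrades viral RNA, ADAR edits double-stranded RNA, and IFIH1 (MDA5) senses long double-stranded RNA. IFI16 and ISG20 rose in both lines at 24 and 48 h, and in DHL4 already at 6 h. IFI16 levels in DHL4 were 7.40 and 7.42 in DMSO, 8.0, 8.01 and 7.60 at 2 h, 9.08, 8.88 and 8.89 at 6 h, 9.18, 9.17 and 9.19 at 24 h and 8.79, 8.71 and 8.75 at 48 h. IFI16 levels in DHL6 were 8.66, 8.65 and 8.47 in DMSO, 8.67, 8.60 and 8.77 at 2 h, 8.66, 8.61 and 8.60 at 6 h, 9.22, 9.13 and 9.26 at 24 h and 9.34, 9.13 and 9.28 at 48 h. IFI16 in DHL4 rose above DMSO on every R406 array, and by 24 h reached the level of DHL6. IFI16 rose in DHL4 by 0.46 ± 0.11 at 2 h, 1.54 ± 0.11 at 6 h, 1.77 ± 0.11 at 24 h (3.42-fold, limma adjusted p = 3.28e-12) and 1.34 ± 0.11 at 48 h. Without DMSO replicate 1 or 2 its 2 h call was lost (adjusted p = 0.0818 and 0.0552). In DHL6 it rose by 0.61 ± 0.10 at 24 h (limma adjusted p = 8.47e-05) and 0.65 ± 0.10 at 48 h. Of its 3 probe sets, 2 were called there at 24 h and 1 at 48 h.

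ISG20 levels in DHL4 were 7.21 and 7.04 in DMSO, 7.70, 7.78 and 8.03 at 2 h, 8.46, 8.41 and 8.38 at 6 h, 9.57, 9.54 and 9.43 at 24 h and 8.22, 8.42 and 8.33 at 48 h. ISG20 levels in DHL6 were 2.79, 2.75 and 2.92 in DMSO, 2.92, 3.52 and 3.18 at 2 h, 3.06, 3.26 and 3.39 at 6 h, 4.22, 3.45 and 4.0 at 24 h and 3.97, 3.03 and 4.13 at 48 h. ISG20 stood above DMSO on every R406 array of DHL4 and was highest at 24 h. In DHL6 its DMSO mean lay under the floor. ISG20 rose in DHL4 by 1.29 ± 0.23 at 6 h, 2.39 ± 0.23 at 24 h (5.23-fold, limma adjusted p = 6.06e-09) and 1.20 ± 0.23 at 48 h. At 2 h the difference was 0.71 ± 0.23, which did not pass in the main fit. It passed there without the 4 arrays of low upper quartile (0.62, limma adjusted p = 0.0344), and so did a second ISG20 probe set on all arrays (0.53, adjusted p = 0.0437). In DHL6 it rose by 1.07 ± 0.21 at 24 h (limma adjusted p = 0.000499) and 0.89 ± 0.21 at 48 h. The 48 h difference in DHL6 was 0.21 (adjusted p = 0.646) when the 4 arrays of low upper quartile, which include 2 of its 3 arrays, were left out. The second probe set of ISG20 was called at 24 h in both lines too (2.31 and 0.67). ADAR had group means of 8.53 to 9.21 and was not called, and IFIH1 was at the floor.

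The interferon regulatory factors bind the response element: IRF1 activates, IRF2 mostly antagonises it, IRF7 drives interferon alpha genes and IRF9 belongs to the complex with STAT2. All 4 measured factors rose in DHL4 at 24 h. In DHL6 0 of the 4 rose at that time by limma (1 at an unadjusted p under 0.05). IRF7 passed there without the 4 arrays of low upper quartile, at an unchanged difference. IRF7 levels in DHL4 were 3.05 and 2.72 in DMSO, 3.01, 3.74 and 3.81 at 2 h, 3.66, 3.89 and 4.12 at 6 h, 5.15, 5.02 and 4.84 at 24 h and 3.66, 3.38 and 3.45 at 48 h. IRF7 levels in DHL6 were 4.62, 4.54 and 4.91 in DMSO, 5.07, 5.28 and 5.32 at 2 h, 4.96, 4.95 and 4.89 at 6 h, 5.25, 5.32 and 5.03 at 24 h and 4.69, 4.94 and 5.23 at 48 h. IRF7 in DHL4 began near the bottom of the scale and at 24 h reached the level it had in DHL6. IRF7 rose in DHL4 by 1.00 ± 0.20 at 6 h and 2.12 ± 0.20 at 24 h (4.33-fold, limma adjusted p = 3.29e-09). Its 2 h value (0.63 ± 0.20, adjusted p = 0.0416) came with overlapping arrays and was lost without either DMSO array or without replicate 2 or 3 of that group (adjusted p from 0.0706 to 0.352), or without the 4 arrays of low upper quartile (0.48, adjusted p = 0.142). In DHL6 the IRF7 difference at 24 h was 0.51 ± 0.18 (adjusted p = 0.055). Without the 4 arrays of low upper quartile IRF7 passed limma's test in DHL6 at 24 h (0.51, adjusted p = 0.0288) and at 2 h (0.53, adjusted p = 0.0427). None of the 4 arrays is in these groups, so both differences were the same as on all arrays.

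IRF1 levels in DHL4 were 3.46 and 3.23 in DMSO, 4.48, 3.81 and 3.58 at 2 h, 4.19, 3.88 and 4.79 at 6 h, 4.57, 4.69 and 5.49 at 24 h and 3.44, 3.50 and 3.24 at 48 h. IRF1 levels in DHL6 were 3.49, 2.86 and 3.45 in DMSO, 3.03, 3.60 and 3.49 at 2 h, 3.63, 3.07 and 3.34 at 6 h, 3.09, 3.21 and 3.16 at 24 h and 3.28, 2.97 and 2.99 at 48 h. IRF1 in DHL4 stood above DMSO at 2, 6 and 24 h and was back at its level at 48 h, while in DHL6 every group overlapped DMSO. IRF1 rose in DHL4 by 0.94 ± 0.28 at 6 h and 1.57 ± 0.28 at 24 h (2.97-fold, limma adjusted p = 6.53e-05). The 6 h call was lost without either DMSO array or without replicate 3 of that group (adjusted p from 0.0742 to 0.22). IRF2 rose by 0.81 ± 0.16 and IRF9 by 0.71 ± 0.21 in DHL4 at 24 h (limma adjusted p = 0.00029 and 0.00979). The IRF9 call was lost without DMSO replicate 1 (0.49, adjusted p = 0.218) or replicate 2 of the 24 h group (adjusted p = 0.0505). In DHL6 IRF9 fell at 2 h by 0.71 ± 0.19 (limma adjusted p = 0.0208), a call lost when any 1 of 5 of the 6 arrays was left out (DMSO replicate 1 or 3, or any 2 h replicate; adjusted p from 0.0505 to 0.149).

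SP100, SP110 and SP140 are related chromatin readers of the nuclear bodies that PML organises, and they repress viral genomes. SP110 rose in both lines at 24 and 48 h, SP100 in both at 24 h with weaker calls at 48 h, and SP140 in DHL4. SP110 levels in DHL4 were 5.08 and 5.15 in DMSO, 4.94, 4.24 and 4.26 at 2 h, 6.15, 6.35 and 6.34 at 6 h, 8.17, 7.86 and 7.95 at 24 h and 6.72, 7.00 and 7.05 at 48 h. SP110 levels in DHL6 were 6.89, 7.00 and 6.86 in DMSO, 6.61, 6.78 and 6.85 at 2 h, 7.36, 7.52 and 7.16 at 6 h, 8.42, 8.25 and 8.28 at 24 h and 7.78, 8.13 and 8.26 at 48 h. SP110 in DHL4 was above both DMSO arrays from 6 h on and below them at 2 h, and in DHL6 it was above them from 6 h on. SP110 rose in DHL4 by 1.17 ± 0.17 at 6 h, 2.88 ± 0.17 at 24 h (7.36-fold, limma adjusted p = 1.36e-12) and 1.81 ± 0.17 at 48 h, and in DHL6 by 1.40 ± 0.15 at 24 h (adjusted p = 2.88e-07) and 1.14 ± 0.15 at 48 h. All 4 probe sets of SP110 were called higher at 24 h in both lines, by 1.82 to 3.38 in DHL4 and 1.10 to 1.81 in DHL6. The fall at 2 h in DHL4, by 0.63 ± 0.17 (limma adjusted p = 0.0184), was seen with 1 of the 4 probe sets; the others gave -0.30, -0.05 and 0.16. It was lost without either DMSO array or without replicate 2 or 3 of the 2 h group (adjusted p from 0.0821 to 0.135), and without the 4 arrays of low upper quartile it was -0.52 (adjusted p = 0.0513).

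SP100 levels in DHL4 were 6.78 and 6.64 in DMSO, 6.54, 6.58 and 6.24 at 2 h, 6.95, 6.88 and 7.10 at 6 h, 8.54, 8.56 and 8.57 at 24 h and 7.03, 7.27 and 7.42 at 48 h. SP100 levels in DHL6 were 7.42, 7.26 and 6.84 in DMSO, 7.22, 7.32 and 7.28 at 2 h, 7.39, 7.41 and 7.26 at 6 h, 7.90, 7.80 and 7.94 at 24 h and 7.92, 7.56 and 7.50 at 48 h. The 24 h arrays of SP100 stood clear of DMSO in both lines, by more in DHL4. SP100 rose by 1.84 ± 0.15 at 24 h in DHL4 (3.59-fold, limma adjusted p = 3.04e-10) and by 0.71 ± 0.13 in DHL6 (adjusted p = 0.000453). Its 5 probe sets gave 1.84, 1.17, 1.11, 0.44 and -0.01 at 24 h in DHL4. In that line 1 dimmer probe set was called lower at 2 h (-0.74, limma adjusted p = 0.00787), and another was called higher at 6 h (0.82, adjusted p = 0.00151). At 48 h the differences were 0.53 ± 0.15 in DHL4 and 0.49 ± 0.13 in DHL6, and both calls could be lost by leaving out 1 array. The first was lost without either DMSO array or replicate 2 or 3 of that group (adjusted p from 0.0764 to 0.273). The second was lost without DMSO replicate 3 or 48 h replicate 1 (0.0997 and 0.0859). Read from the mean of its probe sets, neither 48 h difference passed limma's test (0.26 and 0.18, adjusted p = 0.12 and 0.149). Without the 4 arrays of low upper quartile the DHL6 difference at 48 h was 0.39 (adjusted p = 0.171). SP140 rose in DHL4 at 6 h (0.86 ± 0.20) and 24 h (0.90 ± 0.20, limma adjusted p = 0.000672). Its 6 h call was lost without DMSO replicate 2 (adjusted p = 0.0676). In DHL6 the SP140 difference at 24 h was 0.43 with or without the 4 arrays of low upper quartile. It passed limma's test only without them (adjusted p = 0.0393). PML had group means of 3.41 to 3.84 and was not called.

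TRIM22 is a ubiquitin ligase that represses viral transcription, and TRIM14 is a scaffold of antiviral signalling. TRIM22 moved in opposite directions at 6 h in the lines. TRIM22 levels in DHL4 were 6.48 and 6.29 in DMSO, 7.00, 7.15 and 6.43 at 2 h, 8.22, 8.08 and 8.13 at 6 h, 8.78, 8.78 and 8.74 at 24 h and 8.35, 8.30 and 8.23 at 48 h. TRIM22 levels in DHL6 were 8.31, 8.18 and 8.21 in DMSO, 8.10, 8.22 and 8.40 at 2 h, 7.47, 7.51 and 6.83 at 6 h, 8.27, 8.21 and 8.36 at 24 h and 8.44, 8.49 and 8.59 at 48 h. In DHL4 TRIM22 was above DMSO on every array from 6 h on, and in DHL6 it dipped below DMSO at 6 h alone. TRIM22 rose in DHL4 by 1.76 ± 0.17 at 6 h, 2.38 ± 0.17 at 24 h (5.21-fold, limma adjusted p = 2.9e-11) and 1.91 ± 0.17 at 48 h. In DHL6 it fell by 0.97 ± 0.15 at 6 h (limma adjusted p = 7.76e-05) and differed by 0.04 ± 0.15 at 24 h. TRIM14 was not called from its brightest probe set (differences of -0.79 to 0.34), while its second probe set was called lower in DHL4 at 2, 6 and 24 h (-1.05, -0.77 and -1.06) and higher in DHL6 at 6 and 24 h (0.66 and 0.67). XAF1, a pro-apoptotic factor, was called at 6 h in DHL6 (0.61 ± 0.19) on arrays of 3.25, 3.02 and 4.23 against 2.83, 3.06 and 2.78. Its difference was 0.24 (adjusted p = 0.413) without replicate 3, and the call was also lost without any 1 of the DMSO arrays (adjusted p from 0.0534 to 0.154) or without the 4 arrays of low upper quartile (0.24, adjusted p = 0.321).

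Comparing R406 times within a line leaves out the DMSO arrays. From 6 to 24 h the members that changed rose in both lines, and from 24 to 48 h most of those that changed in DHL4 fell. In DHL4, 11 members rose and 0 fell from 6 to 24 h (8.75% of all genes rose and 13.5% fell; limma gave 1 member lower at an unadjusted p under 0.05), and 3 rose and 12 fell from 24 to 48 h (14.4% and 10.7%). The largest of the 12 falls were those of OAS1 (by 2.56 ± 0.28), IRF1 (by 1.53 ± 0.25), IRF7 (by 1.51 ± 0.18) and SP100 (by 1.31 ± 0.13). IFI30 rose by 2.45 ± 0.12 over the same interval, towards its DMSO level. Of these 15 changes, those of TRIM22, IRF9 and TRIM14 were lost when single arrays were left out (adjusted p from 0.0539 to 0.216). The arrays were 24 h replicate 1 or 2 or 48 h replicate 2 or 3 for TRIM22 and IRF9, and any but 24 h replicate 2 for TRIM14. The IFI16 fall did not pass with the mean of its probe sets (-0.20, limma adjusted p = 0.187).

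In DHL6, 7 members rose and 0 fell from 6 to 24 h (3.30% of all genes rose and 2.53% fell; 2 members lower at an unadjusted p under 0.05 in limma). The 7 were OAS1, MX2, UBE2L6, IFI16, SP100, SP110 and TRIM22. The OAS1 and SP100 calls were lost without 6 h replicate 3 or 24 h replicate 1 or 3 (adjusted p from 0.0571 to 0.165). That of OAS1 was also lost without the 4 arrays of low upper quartile (0.76, adjusted p = 0.0723). With the mean of its probe sets the SP100 difference was 0.18 (limma adjusted p = 0.307). The other 5 calls were kept without any 1 array. From 24 to 48 h in DHL6, 1 member rose and 0 fell (1.65% and 5.06% of all genes; 4 lower at an unadjusted p under 0.05 in limma). That member was IFITM2 (0.69 ± 0.17), whose call was lost without 24 h replicate 1 or 3. The count became 3, 6 or 4 without 48 h replicate 1, 2 or 3. Leaving out the 4 arrays of low upper quartile leaves 1 array at 48 h, so no count is given for it.

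The difference between the lines was tested as an interaction, the response of DHL6 minus that of DHL4. At 24 h the rise was smaller in DHL6 for most members that differed: 11 members had a lower response in DHL6 and 2 a higher value (7.00% of all genes lower and 9.35% higher). The 11 were IFIT2, OAS1, BST2, IFI16, ISG20, IRF1, IRF7, IRF9, SP100, SP110 and TRIM22, from OAS1 at -2.85 ± 0.42 (limma adjusted p = 1.64e-05) to IFIT2 at -0.84 ± 0.28 (adjusted p = 0.0389). The other two were MX2, which rose in DHL6 alone (1.88 ± 0.23, with DHL4 at the floor), and IFI30, which fell less in DHL6 (1.28 ± 0.18). UBE2L6 did not differ past the threshold at 24 h. The ISG20 value of -1.32 ± 0.31 compares a line that started at 7.04 to 7.21 with one that started under the floor. The call was lost for IFIT2 when any 1 of 7 arrays was left out (either DHL4 DMSO array, DHL6 DMSO replicate 3, DHL4 24 h replicate 1 or 3, or DHL6 24 h replicate 1 or 2; adjusted p from 0.072 to 0.138), for BST2 without DHL4 DMSO replicate 2 (adjusted p = 0.0773) or DHL6 24 h replicate 1 (adjusted p = 0.0608), and for IRF9 without DHL4 DMSO replicate 1 (-0.76, adjusted p = 0.135).

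At the other times fewer members differed. At 2 h, 0 members had a higher and 1 a lower response in DHL6 (1.22% and 0.534% of all genes; 0 higher at an unadjusted p under 0.05 in limma). The 1 was OAS1, and its call was lost without either DHL4 DMSO array (adjusted p = 0.0669 and 0.0586). At 6 h, 2 were higher and 4 lower (3.08% and 3.96%), among them TRIM22 at -2.73 ± 0.23 (limma adjusted p = 2.11e-08) and IFI16 at -1.51 ± 0.15. At 48 h, 2 were higher and 3 lower (1.62% and 3.46%): the response was higher in DHL6 for UBE2L6 (1.69 ± 0.30) and MX2 (1.50 ± 0.23), and lower for TRIM22 (-1.64 ± 0.23), IFI16 and IFI30. The IFI30 difference was lost without the 4 arrays of low upper quartile (-0.39, adjusted p = 0.211).

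**Figure D5:**
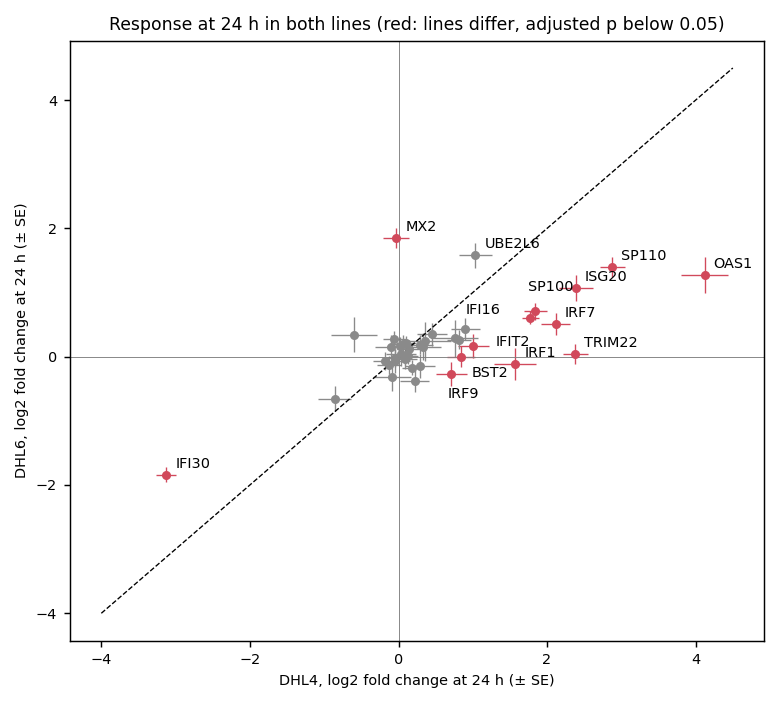
Log2 fold change at 24 h of R406 against DMSO in DHL4 (horizontal) and DHL6 (vertical) for the 41 measured members, with bars of 1 standard error; red points differ between the lines at an adjusted p under 0.05 and the dashed line marks equal change. Most red points lie below the line on the right, from OAS1 at 4.12 and 1.27 to IRF9 at 0.71 and -0.27, while MX2 and IFI30 lie above it.

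The lines already differed in DMSO. Of the 41 members, 10 were higher and 6 lower in DHL6 than in DHL4 (10.0% and 10.5% of all genes). The 6 lower in DHL6 were ISG20 (-4.31 ± 0.23), ISG15 (-3.60 ± 0.22), TRIM14 (-2.65 ± 0.31), BST2 (-1.90 ± 0.18), IFITM2 (-1.68 ± 0.19) and ADAR (-0.44 ± 0.13). Those higher in DHL6 were led by MX2 (2.80 ± 0.17), SP140 (1.93 ± 0.20), TRIM22 (1.85 ± 0.17), SP110 (1.80 ± 0.17), IRF7 (1.80 ± 0.20) and IFI16 (1.19 ± 0.11), with IRF2, IRF9, IFITM1 and SP100 below 1. The difference of ISG20 corresponds to 19.8-fold (limma adjusted p = 2.57e-13) with DHL6 under the floor. The ADAR, IFITM1 and SP100 calls were lost without single DMSO arrays of either line (adjusted p from 0.0518 to 0.223), and that of IRF9 without DHL4 DMSO replicate 1 (adjusted p = 0.149). With the mean of its probe sets the SP100 difference was 0.14 (limma adjusted p = 0.436). Of these 16 members, chosen for their difference in DMSO, the gap between the line means was smaller at 24 h of R406 for 11 and larger for 5, a description with no test. It shrank for IFI16 from 1.19 to 0.02, for IRF7 from 1.80 to 0.19 and for SP110 from 1.80 to 0.32. It widened for MX2 from 2.80 to 4.69, for ISG20 from -4.31 to -5.62, for BST2 from -1.90 to -2.74 and for IFITM2 from -1.68 to -2.28. The gap changed sides for SP100 from 0.46 to -0.67, for TRIM22 from 1.85 to -0.488 and for IRF9 from 0.819 to -0.165. Those of TRIM22 and IRF9 were smaller in size at 24 h and that of SP100 was larger.

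Other genes of the pathway were read from lists of its components. At 24 h 13.0% of all genes rose and 16.5% fell in DHL4, and 6.20% rose and 8.17% fell in DHL6, and the counts below are to be read against these shares. Of 14 measured interferons, receptors and JAK-STAT components, 5 rose (35.7%) and 0 fell at 24 h in DHL4 and 2 rose (14.3%) and 0 fell in DHL6, with 0 lower at an unadjusted p under 0.05 in DHL4 and 1 in DHL6 by limma. JAK1, the kinase shared by the receptors, rose at 24 h by 2.80 ± 0.18 in DHL4 (limma adjusted p = 4.0e-12) and 1.74 ± 0.16 in DHL6, IL10RB by 1.99 ± 0.36 in DHL4, and IFNGR1, a chain of the interferon gamma receptor, was lower by 1.14 ± 0.29 at 48 h in DHL6. Of 11 brakes on the pathway, 3 rose (27.3%) and 2 fell (18.2%) at 24 h in DHL4 and 1 rose (9.09%) and 2 fell (18.2%) in DHL6. SOCS1, which blocks JAK kinases, rose by 2.10 ± 0.28 in DHL4, PIAS1 by 1.05 ± 0.16, and PIAS2 was lower by 1.76 ± 0.30. Of 15 measured sensing genes (of 17), 1 rose and 1 fell (6.67% each) at 24 h in DHL4 and 0 changed in DHL6 by limma (0 higher and 1 lower at an unadjusted p under 0.05). AIM2, a cytoplasmic DNA sensor, rose in DHL4 by 1.91 ± 0.11 at 24 h and in DHL6 by 0.93 ± 0.10 at 48 h. Of 28 measured other interferon-stimulated genes (of 40), 5 rose (17.9%) and 3 fell (10.7%) at 24 h in DHL4 and 1 rose (3.57%) and 3 fell (10.7%) in DHL6, near the shares of all genes. APOBEC3G, a cytidine deaminase that mutates retroviral DNA, was lower in DHL6 by 2.37 ± 0.31 at 2 h and 2.07 ± 0.31 at 24 h, and in DHL4 WARS1 was lower by 1.54 ± 0.15 and LAP3 by 1.63 ± 0.20 at 24 h.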

How the data were processed

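Total RNA of DHL4 and DHL6 cells was measured on Affymetrix HT_HG-U133A arrays. The deposited log2 values were made by the authors with RMA, per the submitters' processing notes. Which RMA version was used, and on which arrays at once, is not given in the sources used here. Of 22277 probe sets, 19724 carried 1 gene symbol, 568 several and 1923 none, and 62 were controls. Each of the 12165 genes was read from the probe set with the highest mean over all 29 arrays. A model of 10 group means was fitted with limma 3.58.1 in R 4.3.3 (19 residual degrees of freedom, 5.05 from the prior), p-values were adjusted by Benjamini and Hochberg over all genes in each of 17 contrasts, and the code was tested on simulated data.

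The members and lists were chosen with earlier results of these data known. Values of every array are given for members that changed by at least 1 log2 unit in a called comparison with DMSO; of other members at most 4 are named per role, and of other pathway lists at most 3 called genes. Promoters are those of the 4 called risers with the core as searched and the largest without it. Alternatives covered normalization, centring, a filter on dim genes, the fitted samples, a replicate block, the variance prior, the probe-set rule and leaving out arrays; leaving out the 4 arrays of low upper quartile, and the median level as a mark of dim genes, were added after seeing the data.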

Additional observations from a re-analysis of the deposited data

Results flagged for a closer look

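For 25 combinations of member and time, the response to R406 differed between the lines by limma's interaction test (adjusted p under 0.05). Each value is the log2 response of DHL6 minus that of DHL4; each line's response rests on its own DMSO arrays, which all its times share, 2 in DHL4 and 3 in DHL6.

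At 2 h OAS1 differed by -1.95, a call lost without either DHL4 DMSO array. At 6 h the differences were -2.73 for TRIM22, -2.56 for OAS1, -1.51 for IFI16, -0.91 for SP140, 0.91 for MX2 and 1.69 for IFI30. The SP140 call was lost when any 1 of 6 arrays was left out (either DHL4 DMSO array, DHL6 DMSO replicate 2, DHL4 6 h replicate 1 or 2, or DHL6 6 h replicate 3; adjusted p from 0.0569 to 0.193). That of MX2 was lost without either DHL4 DMSO array (adjusted p = 0.0623 and 0.0506).

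At 24 h the differences were -2.85 for OAS1, -2.34 for TRIM22, -1.68 for IRF1, -1.61 for IRF7, -1.48 for SP110, -1.32 for ISG20, -1.17 for IFI16, -1.14 for SP100, -0.98 for IRF9, -0.84 for BST2 and -0.84 for IFIT2, and were above 0 for MX2 (1.88) and IFI30 (1.28). For IRF1, IRF7, IRF9, BST2, IFIT2 and TRIM22 the 24 h change in DHL6 was not called in the main fit, and MX2 was under the floor in DHL4. The 24 h change of IRF7 in DHL6 was called without the 4 arrays of low upper quartile (limma adjusted p = 0.0288), at an unchanged difference.

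At 48 h the differences were 1.69 for UBE2L6, 1.50 for MX2, -1.64 for TRIM22, -0.80 for IFI30 and -0.68 for IFI16. Without DHL4 DMSO replicate 1 the IFI30 difference was -0.74 (adjusted p = 0.052), and without the 4 arrays of low upper quartile it was -0.39 (adjusted p = 0.211).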

How the results depend on the processing

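Of 265 counts of called members under the alternatives, 236 stayed within 1.5 times the main count. Of 2247 single member values, 1936 kept their side of the threshold, 164 lost a call, 147 gained one and 0 reversed; of 138 called values, 102 were kept under every setting run. Counts that moved were those of 6 comparisons. DHL4 at 2 h (5 calls) gave 2 with only the compared groups fitted, 8 with only the groups of the line, and 2 to 5 with single arrays left out. DHL4 at 48 h (8 calls) gave 5 to 7 with single arrays left out and 13 without the 4 arrays of low upper quartile. DHL6 at 2 h (2 calls) gave 1 to 2 with single arrays left out, and DHL6 at 6 h (5 calls) gave 8 after quantile normalization and 3 with only the compared groups. The difference between lines at 2 h (1 call) gave 2 with the mean of probe sets, 3 without the 4 arrays and 0 to 1 with single arrays left out. DHL6 at 48 against 24 h (1 call) gave 2 after quantile normalization, 2 after median centring, 2 with the mean of probe sets and 3 with a variance trend. It gave 0 with only the compared groups, 0 with only the groups of the line and 0 to 6 with single arrays left out. Its count without the 4 arrays would rest on 1 array at 48 h and is left out. The move of DHL4 at 48 h to 13 came with unchanged differences, since none of the 4 arrays is in the groups compared. Only the scatter shared by all groups and the adjustment changed there. The cause of the other moves was not tested, except that fits on fewer groups have fewer arrays. Replicate numbers did not pair the arrays: same-numbered arrays of a line deviated with a median correlation of 0.005 in DHL4 (26 pairs) and -0.019 in DHL6 (30 pairs), and a replicate block gave 16 calls in DHL4 and 9 in DHL6 at 24 h, as in the fit without it. Over all 17 comparisons the block lost 8 calls and gained 3: those lost were IRF7 at 2 h and IRF1 at 6 h in DHL4, OAS3 at 48 h in DHL6, the 24 h difference between lines of IFIT2 (13 calls became 12), IRF9 and TRIM14 at 48 against 24 h in DHL4 (15 became 13), and IFITM1 and ADAR in DMSO (adjusted p from 0.0521 to 0.108). Without dim genes the members' median was 0.75 at 24 h in DHL4, -0.47 for the difference between lines at 24 h and -0.18 for that at 48 h; this filter removes the dim members. Signal over background limits the 14 members under the median level.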

Other observations

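Several members are neighbours in the genome, with no other protein-coding gene between them in RefSeq, and their values are given side by side. On chromosome 12 OAS1, OAS3 and OAS2 lie in a row: at 24 h in DHL4 the differences from DMSO were 4.12 for OAS1, 0.36 for OAS3 and 0.33 for OAS2, of which limma called that of OAS1. On chromosome 21 MX2 and MX1 are adjacent: at 24 h in DHL6 MX2 was higher by 1.85 and MX1 by 0.03. On chromosome 2 SP110 and SP140 are adjacent: in DHL4 at 24 h they rose by 2.88 and 0.90. In DHL6 the value of SP110 was 1.40, which was called. That of SP140 was 0.43, not called in the main fit but called at the same value without the 4 arrays of low upper quartile. On chromosome 10 IFIT2 and IFIT3 are adjacent: in DHL4 at 24 h IFIT2 rose by 1.01 and the IFIT3 value was 0.29. OAS2, OAS3, MX1 and IFIT3 were at or near dim levels, where the array shows little change, so these values do not show that the neighbours stayed the same.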
